A study of Mus musculus with 18 samples.

Results

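Osteoclast differentiation and fusion genes were followed here in RAW264.7 cells, a mouse macrophage-like line that can fuse into bone-resorbing osteoclasts when given RANKL. The genes are Acp5, Ctsk, Nfatc1, Atp6v0d2, Dcstamp and Ocstamp, taken by symbol, and all 6 were found among 5455 named genes with a row between the groups used here. They have 7 transcript entries, 2 of them of Dcstamp. The name cell of the Ocstamp entry also holds an assembled-locus identifier, and the entry was counted as Ocstamp. Poly(A)-selected RNA came from 18 samples in 6 groups of 3. Construct cells carry a lentiviral vector (pINDUCER20-mCITED1) that expresses mouse CITED1, a co-regulator of transcription, when doxycycline is present. They were given doxycycline at 100 ng/mL and interferon-gamma at 200 U/mL, interferon-gamma without doxycycline, doxycycline without interferon-gamma, or neither. Parental cells without the construct were given doxycycline or left untreated. No parental group received interferon-gamma, the labels name no RANKL in any group, and they do not say whether construct cells are 1 clone or a mixed population. The labels give neither the length of treatment nor whether the 3 samples of a group were grown as separate cultures.

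Osteoclasts form from macrophage precursors when M-CSF and RANKL bind their receptors and induce the transcription factor NFATc1, which in turn activates most genes of the mature cell. Precursors fuse into multinucleated cells through the membrane proteins DC-STAMP and OC-STAMP, and the fused cell dissolves bone with acid, cathepsin K and tartrate-resistant acid phosphatase. Interferon-gamma is known as an inhibitor of RANKL-driven osteoclast formation.

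The authors' deposited table holds 1 fold change, 1 summed FPKM (fragments scaled by transcript length and library size) and 1 q-value (a p-value adjusted by the authors) for each pair of groups. It has no values per sample, so no SD, n or sequencing depth stands behind a level printed here. A level is the FPKM of a group rebuilt from the fold and the sum. For the 7 entries, the 42 levels that could each be rebuilt from several rows differed between rows by at most 0.805%. No row used has a fold under 2, a q over 0.0499 or a summed FPKM under 0.55, and a gene with a row is said to be called. The smallest q is 3.9e-04, which 71.8% of the rows used share, so this value does not rank genes. A pair of groups without a row is not shown to be alike. The induced gene Cited1 was at 86.7 FPKM with both treatments, against 11.5 FPKM with interferon-gamma alone, and at 168 FPKM with doxycycline alone, against 0.703 FPKM in untreated construct cells. It was thus above the untreated level with interferon-gamma also without doxycycline.

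Macrophage identity was checked on 10 marker genes, of which 6 have a row. The leukocyte gene Ptprc lay between 47.7 and 164 FPKM in the 6 groups, and the Fc receptor gene Fcgr3 between 39.9 and 221, both highest with both treatments. Other markers of the list were lower with both treatments: Cd68 was at 255 FPKM, against 661 FPKM with doxycycline alone, and Itgam at 20.0 FPKM, against 44.0 FPKM with doxycycline alone. Adgre1, which encodes F4/80, was at 5.03 FPKM with both treatments, against 13.9 FPKM with doxycycline alone, and at 32.6 FPKM in parental cells with doxycycline. Csf1r, Lyz2, Cd14 and Mertk have no row, so their levels are not given here. Of 10 osteoclast markers, the 6 genes and the integrin gene Itgb3 have a row, while Calcr, Mmp9 and Oscar have none. All 6 genes were above 0 in every group, and Acp5, Ctsk and Ocstamp were below 5 FPKM in all groups without interferon-gamma. None of 6 fibroblast and 5 T cell markers has a row.

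RefSeq promoter windows on GRCm38.p6 are shown for 2 of the members, the resorption genes Acp5 and Ctsk, which both fell with interferon-gamma. Windows of the other members, among them Nfatc1, which also fell, were not examined here. Each sequence is the 250 bases before a start site, 5′ to 3′ on the strand of the gene. Ctsk lies on the plus strand (chr3:95498960-95499209) and the Acp5 window on the minus strand (chr9:22131866-22132115). Of 3 Acp5 windows this one was taken because it lies next to the annotated start of the listed entry in GENCODE M21. Capitals mark E-boxes (CANNTG), the core bound by factors such as MITF, and the NFAT core (GGAAA, or TTTCC on the other strand), which do not overlap here.
Ctsk: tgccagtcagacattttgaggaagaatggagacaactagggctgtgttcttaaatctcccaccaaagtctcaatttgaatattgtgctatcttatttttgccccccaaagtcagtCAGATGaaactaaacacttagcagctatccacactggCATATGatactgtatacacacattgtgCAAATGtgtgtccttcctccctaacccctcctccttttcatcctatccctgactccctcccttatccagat
Acp5: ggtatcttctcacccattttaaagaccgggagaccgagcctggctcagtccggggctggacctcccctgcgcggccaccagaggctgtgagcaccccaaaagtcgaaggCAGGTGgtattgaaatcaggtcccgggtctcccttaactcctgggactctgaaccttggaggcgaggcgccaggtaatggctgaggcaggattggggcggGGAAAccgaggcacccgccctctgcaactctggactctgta

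The Ctsk window holds 3 E-boxes, which begin 135, 98 and 71 bases before the start, and no NFAT core. The Acp5 window holds 1 E-box at 141 bases and 1 NFAT core at 41 bases before the start. Such matches are common: 66.2% of 32815 RefSeq windows of the same length hold an E-box and 55.6% the NFAT core. The AP-1 motif TGANTCA and the interferon-gamma activated sequence TTCNNNGAA, searched on both strands, were in neither window, and 6.75% and 7.02% of all windows hold them.

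With interferon-gamma 2 of the 6 genes were higher and 4 lower. In construct cells without doxycycline, the fusion genes Dcstamp and Ocstamp were higher, and the resorption genes Acp5 and Ctsk, the proton pump subunit gene Atp6v0d2 and the transcription factor gene Nfatc1 were lower. The same directions were called in construct cells with doxycycline. These comparisons share no group. Of the 5455 genes, 25.7% were called higher and 24.5% lower without doxycycline, and 33.7% and 34.0% with it, so a call as such was common. Of 2244 genes called 1 way in each of the comparisons, 2238 went the same way in both, so a shared direction was also the rule. In bulk RNA, a change in the number of cells with a transcript and in transcript per cell cannot be told apart.

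Ocstamp, which encodes a multipass membrane protein needed for osteoclast fusion in mice, had the largest change of the 6. It was at 42.2 FPKM with interferon-gamma alone, against 0.382 FPKM in untreated construct cells. The authors' deposited table gives this rise as 110-fold with a q of 3.9e-04, the 20th largest fold among 1404 genes called higher. With both treatments Ocstamp was at 67.5 FPKM, against 0.536 FPKM with doxycycline alone. This rise was 126-fold with a q of 3.9e-04 in the authors' deposited table, the 21st largest of 1837. Groups with interferon-gamma were thus high and the 4 others at or below 0.536 FPKM.

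Dcstamp encodes the related fusion receptor DC-STAMP, first described in dendritic cells. Its main entry, ENSMUST00000022913, was at 63.1 FPKM with interferon-gamma alone, against 20.8 FPKM in untreated construct cells, a 3.04-fold rise with a q of 3.9e-04 in the authors' deposited table. With both treatments it was at 94.2 FPKM, against 19.3 FPKM with doxycycline alone, a 4.88-fold rise with a q of 3.9e-04 in the authors' deposited table. The second entry, ENSMUST00000227368, was at 13.3 FPKM with interferon-gamma alone and 9.60 FPKM in untreated construct cells, a ratio of 1.38 with no row. Summed over both entries the ratio was 2.52 with interferon-gamma alone against untreated cells and 4.69 with both treatments against doxycycline alone. The 3.04-fold rise of the main entry was near 2.90, the median of all genes called higher in the authors' deposited table, and ranked 663rd of 1404. Dcstamp was the highest of the 6 genes on the per-length FPKM scale in every group.

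Ctsk encodes cathepsin K, the collagen-degrading protease of osteoclasts. It was at 0.107 FPKM with interferon-gamma alone, against 3.19 FPKM in untreated construct cells. The authors' deposited table gives a 29.7-fold fall with a q of 0.00801, the 7th largest fold of 1334 genes called lower. With both treatments Ctsk was at 0.390 FPKM, against 3.07 FPKM with doxycycline alone, a 7.87-fold fall with a q of 3.9e-04 in the authors' deposited table. With 1 FPKM added to both groups the Ctsk log2 ratio was -1.92 in place of -4.89 without doxycycline and -1.55 in place of -2.98 with it, so the size of the fall rests on levels under 1 FPKM. The lowest Ctsk level is that of interferon-gamma alone, and the 4 groups without interferon-gamma lay between 3.07 and 3.47 FPKM.

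Acp5, the gene of tartrate-resistant acid phosphatase, was at 0.689 FPKM with interferon-gamma alone, against 2.43 FPKM in untreated construct cells. In the authors' deposited table this is a 3.52-fold fall with a q of 0.00993. With both treatments Acp5 was at 0.767 FPKM, against 4.26 FPKM with doxycycline alone, a 5.56-fold fall with a q of 3.9e-04 in the authors' deposited table. The levels with interferon-gamma were still above the 0.473 and 0.427 FPKM of parental cells with and without doxycycline, by less than the 2-fold limit of the table.

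Atp6v0d2 encodes a subunit of the proton pump that acidifies the resorption pit and, in mice, is also needed for fusion of precursors. It went with the resorption genes: it was at 4.66 FPKM with interferon-gamma alone, against 10.9 FPKM in untreated construct cells. This 2.35-fold fall had a q of 3.9e-04 in the authors' deposited table. With both treatments Atp6v0d2 was at 2.68 FPKM, against 14.0 FPKM with doxycycline alone, a 5.23-fold fall with a q of 3.9e-04 in the authors' deposited table.

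Nfatc1, the regulator upstream of the other members in RANKL-driven differentiation, fell too. It was at 2.50 FPKM with interferon-gamma alone, against 8.48 FPKM in untreated construct cells, 3.40-fold lower with a q of 3.9e-04 in the authors' deposited table. With both treatments it was at 1.36 FPKM, against 6.51 FPKM with doxycycline alone, 4.80-fold lower with a q of 0.00143 in the authors' deposited table. The Nfatc1 level with both treatments was close to the 1.46 and 1.60 FPKM of parental cells with and without doxycycline. An annotated gene on the opposite strand overlaps the Nfatc1 entry and another overlaps the Acp5 entry in GENCODE M21. The libraries were made with a directional kit, but whether the counting used strand is not given in the sources used here.

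As a summary of the contrast, the median log2 fold change was 4.20 for the fusion genes and -3.35 for the resorption genes with interferon-gamma alone against untreated cells, a difference of 7.55. The medians were 4.63 and -2.73 with both treatments against doxycycline alone, a difference of 7.36. Each median rests on 2 genes, and Ocstamp and Ctsk set much of both differences. Over all 6 genes the median log2 fold change was -1.5 and -2.32 in these comparisons, beside 1.01 and -1.0 over all genes called. No called gene lies under 2-fold, and genes called higher and lower were nearly equal in number. The median over all genes called therefore falls near the 2-fold limit, and its sign shows no general shift, here or below. Whether a gene's response differed with and without doxycycline was not tested. The log2 fold change with doxycycline minus that without was 0.68 for Dcstamp, 0.19 for Ocstamp, -0.66 for Acp5, -1.15 for Atp6v0d2, -0.50 for Nfatc1 and 1.92 for Ctsk.

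The scaling between groups touches the smaller of these changes. The median log2 ratio was taken over all entries with levels in both groups and at least 1 FPKM in either. It was 0.65 with interferon-gamma alone against untreated cells and 1.02 with both treatments against doxycycline alone. In these pairs 14.9% and 4.31% of the entries lay within 2-fold, so this median lies among changed genes. Relative to it the rise of Dcstamp with interferon-gamma alone was 0.96 on the log2 scale, just under 2-fold, while the other calls of the 6 genes in both comparisons kept their direction and at least 2-fold.

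**Figure D1:**
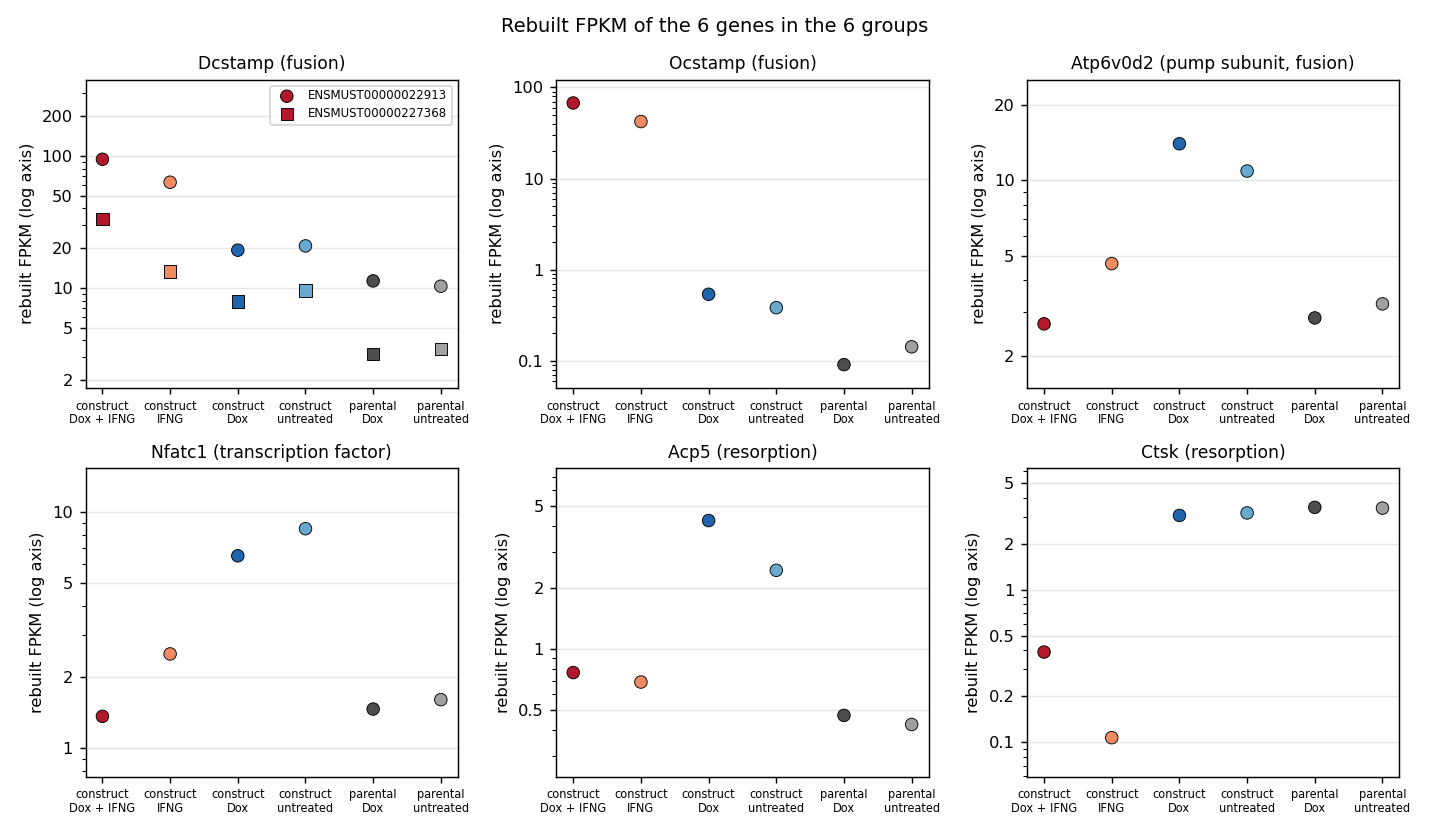
Rebuilt FPKM (log axis, a different range in each panel) of Dcstamp, Ocstamp, Atp6v0d2, Nfatc1, Acp5 and Ctsk in the 6 groups; each point is the authors' value for a group of 3 samples and has no error bar. IFNG is interferon-gamma and Dox doxycycline, and squares are the second Dcstamp entry. Ocstamp stands at 67.5 and 42.2 FPKM in the groups with interferon-gamma and at 0.536 or less in the others, while Ctsk stands at 0.390 and 0.107 there and at 3.07 or more elsewhere.

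Both treatments against interferon-gamma alone differ in doxycycline and in the induction of CITED1. These cannot be told apart here, as no parental group received interferon-gamma. Cited1 was at 86.7 FPKM with both treatments, against 11.5 FPKM with interferon-gamma alone. In this comparison 1 of the 6 genes was called higher and 0 lower by Cuffdiff, beside 6.84% and 6.34% of all genes. The call was of the second Dcstamp entry, at 33.2 FPKM with both treatments, against 13.3 FPKM with interferon-gamma alone. Its rise was 2.5-fold with a q of 0.00365 in the authors' deposited table. The main Dcstamp entry was at 94.2 FPKM with both treatments and 63.1 FPKM with interferon-gamma alone and has no row. Summed over both entries Dcstamp was at 127 FPKM with both treatments, against 76.4 FPKM with interferon-gamma alone, a ratio of 1.67. The second entry made up 26.0% of the sum with both treatments and 17.4% with interferon-gamma alone, against 29.0% with doxycycline alone, 31.6% in untreated construct cells, and 21.9% and 25.2% in parental cells with and without doxycycline. These entries share most of their sequence, so how reads were divided between them is an estimate.

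The other genes have no row in this comparison. Ocstamp stood at 67.5 FPKM with both treatments and 42.2 FPKM with interferon-gamma alone, a log2 ratio of 0.68. Nfatc1 and Atp6v0d2 had log2 ratios of -0.88 and -0.80, short of 2-fold, and Acp5 0.15. Ctsk was at 0.390 FPKM with both treatments, against 0.107 FPKM with interferon-gamma alone, a ratio of 3.64. The sum of these Ctsk levels, 0.497 FPKM, is below the smallest sum in the table, so this ratio stands without a call.

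**Figure D2:**
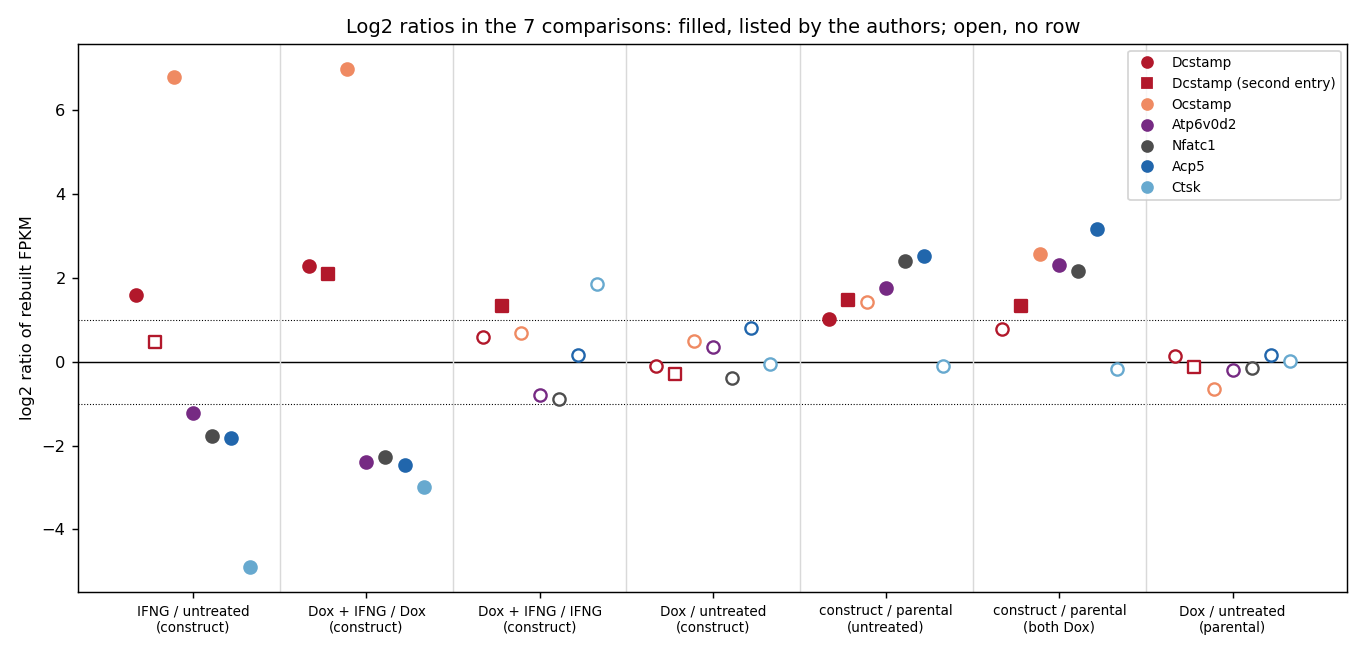
Log2 ratio of rebuilt FPKM for the 7 entries in the 7 comparisons, as first group over second; filled symbols have a row in the authors' deposited table, open symbols have none, and dotted lines mark 2-fold. With interferon-gamma (both comparisons at the left) Ocstamp lies at 6.79 and 6.98, the main Dcstamp entry at 1.60 and 2.29 and its second entry at 0.47 and 2.08, while the other 4 genes lie at -1.23 or lower.

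In unstimulated construct cells with doxycycline against without, 0 of the 6 genes were called higher and 0 lower by Cuffdiff. Of all genes, 0.202% were called higher and 0.202% lower. Counts at an unadjusted p are not given in the table. Acp5 had the largest ratio, with 4.26 FPKM with doxycycline and 2.43 FPKM without, a log2 ratio of 0.81. Ocstamp had a log2 ratio of 0.49, Atp6v0d2 of 0.35, Nfatc1 of -0.38, Ctsk of -0.05 and the main Dcstamp entry of -0.10. In parental cells, where doxycycline controls for the inducer, 0 of the 6 genes were called in either direction by Cuffdiff, beside 0.110% of all genes higher and 0.788% lower. The log2 ratios there lay between -0.19 and 0.15 apart from Ocstamp, at 0.0905 FPKM with doxycycline and 0.142 FPKM without, with a log2 ratio of -0.65. Those Ocstamp levels sum to less than the smallest sum in the table.

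Construct cells differed from parental cells in 5 of the 6 genes. Without inducer 4 of the 6 genes were called higher and 0 lower, beside 1.72% and 2.77% of all genes. Nfatc1 was at 8.48 FPKM in untreated construct cells, against 1.60 FPKM in untreated parental cells, 5.29-fold in the authors' deposited table. Acp5 was 5.69-fold, Atp6v0d2 3.40-fold and the main Dcstamp entry 2.02-fold higher, each with a q of 3.9e-04 in the authors' deposited table. The main Dcstamp entry lies just inside the 2-fold limit, and its second entry was at 9.60 FPKM, against 3.45 FPKM in untreated parental cells. Ocstamp was at 0.382 FPKM, against 0.142 FPKM in untreated parental cells, a ratio of 2.69 whose sum of 0.525 FPKM is below the smallest sum in the table.

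With doxycycline in both lines 5 of the 6 genes were called higher and 0 lower, beside 2.44% and 3.17% of all genes. Acp5 led at 4.26 FPKM in construct cells, against 0.473 FPKM in parental cells, 9.02-fold with a q of 3.9e-04 in the authors' deposited table and the 5th largest of 133 genes called higher. Ocstamp was at 0.536 FPKM, against 0.0905 FPKM in parental cells with doxycycline, 5.91-fold with a q of 0.00395 in the authors' deposited table. This call was lost, leaving 4 genes higher, with at least 1 FPKM required, with 1 FPKM added to both groups (log2 ratio 0.50) or with name cells restricted to the symbol alone. Atp6v0d2 was 4.94-fold and Nfatc1 4.47-fold higher in the authors' deposited table. For Dcstamp only the second entry was called, at 2.5-fold in the authors' deposited table. The main entry, at 19.3 FPKM in construct and 11.3 FPKM in parental cells, had a ratio of 1.71 and has no row. Summed over both entries the Dcstamp ratio was 1.89, so its call rests on the second entry.

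Ctsk stood apart from the other 5 genes between the lines. It was at 3.19 FPKM in untreated construct cells and 3.43 FPKM in untreated parental cells, and at 3.07 FPKM in construct cells and 3.47 FPKM in parental cells with doxycycline, with no row in either comparison. The median log2 fold change of the called genes among the 6 was 2.08 without and 2.30 with doxycycline, against -1.14 and -1.06 over all genes called. Those medians over all genes called again lie near the 2-fold limit and are no measure of a general shift. Fusion minus resorption genes gave a difference of median log2 fold change of -1.49 without and -1.23 with doxycycline, which was not tested. These medians rest on Dcstamp and, with doxycycline, Ocstamp, set against Acp5 alone. The macrophage gene Adgre1 moved with the line as well. It was at 12.2 FPKM in untreated construct cells, against 28.6 FPKM in untreated parental cells, and its part in these results was not tested. Line and transduction cannot be told apart from any clonal difference between the cells.

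Among the 6 groups, 3 orders of level were seen. Ocstamp and Dcstamp were highest with both treatments, then with interferon-gamma alone, then in unstimulated construct cells, and lowest in parental cells. For Ocstamp the first 2 groups have no row against each other, nor do the construct groups without interferon-gamma, nor the parental groups, and untreated construct cells have none against either parental group. The main Dcstamp entry has no row in the first 3 of these pairings either. Between unstimulated construct and parental cells it has a row only for untreated against untreated, at 2.02-fold. The second Dcstamp entry has rows for all those line pairs, but none for interferon-gamma alone against either unstimulated construct group. Acp5, Nfatc1 and Atp6v0d2 were highest in the 2 unstimulated construct groups, which have no row against each other. The other 4 groups have no row against each other for any of these 3 genes, so levels with interferon-gamma were not called apart from parental levels. Ctsk was low in the 2 groups with interferon-gamma and at a like level in the other 4, between which it has no row.

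Genes of the most similar pattern were taken from 2452 genes with an assigned symbol and levels in all 6 groups, by the root mean square difference of centred log2 levels. For Nfatc1 the closest were Cd81, a tetraspanin, at 0.16, Atp6v0d2 at 0.24 and Frat2 at 0.36. For Atp6v0d2 they were Cd81 at 0.20, Nfatc1 at 0.24 and Plekhg5 at 0.32, and for Acp5 they were Cd81 at 0.37, Frat2 at 0.45 and Atp6v0d2 at 0.46. Ocstamp was closest to the receptor kinase gene Axl at 0.48, the GTPase gene Gbp7 at 0.68 and Calhm6 at 0.75. Axl was at 59.3 FPKM with both treatments and 38.9 FPKM with interferon-gamma alone, against 0.363 FPKM with doxycycline alone and 0.592 FPKM in untreated construct cells. Dcstamp was closest to low-level entries of Arid4b and Pdlim7 at 0.10 and 0.15 and to Hdac9 at 0.18. Ctsk was closest to Cd300e at 0.53, Htr1b at 0.54 and Spink5 at 0.61. These are likenesses over 6 group values from the same libraries, given as a description.

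**Figure D3:**
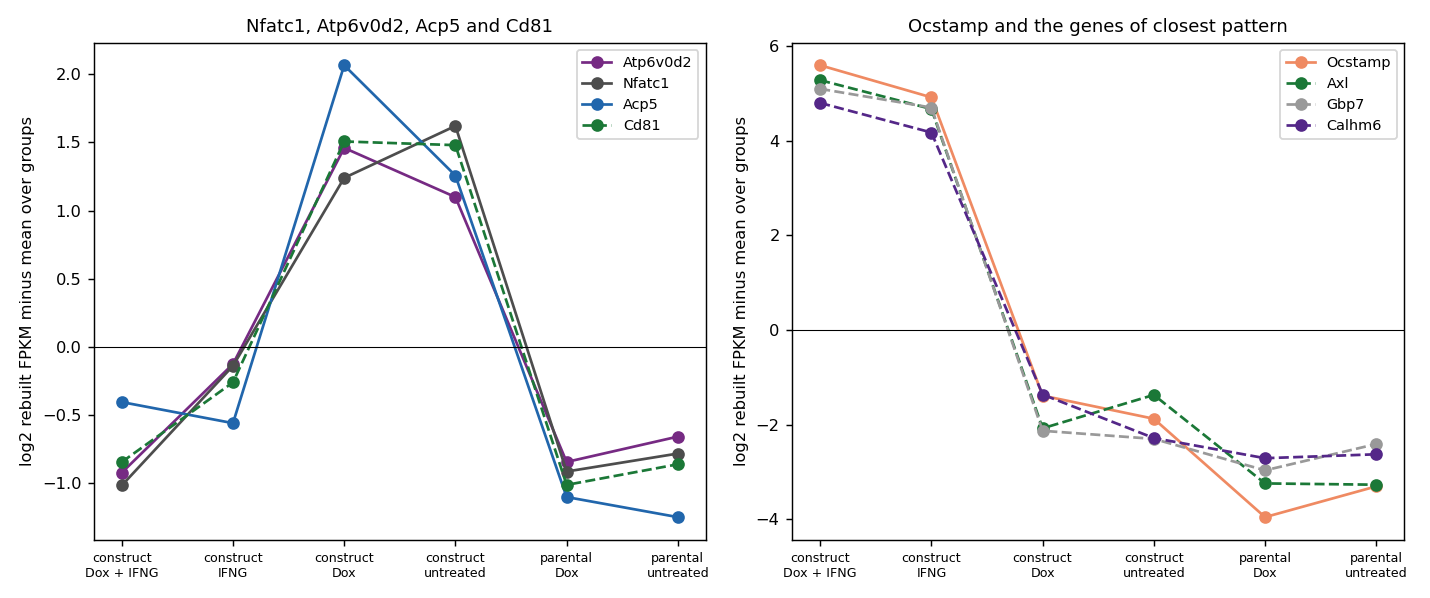
Log2 rebuilt FPKM minus its mean over the 6 groups, for Nfatc1, Atp6v0d2, Acp5 and Cd81 (left) and for Ocstamp with Axl, Gbp7 and Calhm6 (right); lines join groups only to guide the eye, and there is no error bar. The left genes peak in the unstimulated construct groups, where Cd81 stood at 27.0 and 26.5 FPKM, and the right genes are high in both groups with interferon-gamma.

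The other genes of the pathway came from 6 lists. Beside each count with interferon-gamma stand the shares over all 5455 genes with a row, 25.7% higher and 24.5% lower with interferon-gamma alone, and 33.7% higher and 34.0% lower with both treatments against doxycycline alone. Of a list of 20 fusion partners, 14 have a row in any comparison, and 5 were called higher and 5 lower with interferon-gamma alone. The median log2 fold change of its called genes was -0.08, beside 1.01 over all genes called. As above, the median over all genes called lies near the 2-fold limit, so its sign is no baseline for any list. Trem2, a receptor that signals through DAP12, was at 15.2 FPKM, against 190 FPKM in untreated construct cells, and Cd81 at 7.92 FPKM, against 26.5 FPKM in untreated construct cells. Cd47, the ligand of SIRP-alpha, was at 80.8 FPKM with interferon-gamma alone, against 20.2 FPKM in untreated construct cells. The integrin gene Itgb5 was at 5.67 FPKM with interferon-gamma alone, against 18.0 FPKM in untreated construct cells. Against doxycycline alone, both treatments gave 5 higher and 6 lower, with a median of -2.35 beside -1.0. Trem2 was 43.8-fold, Siglec15 14.6-fold and Itgb5 11.8-fold lower and Cd47 5.70-fold higher in the authors' deposited table.

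Of a list of 22 further genes of resorption machinery, 11 have a row, and 5 were higher and 2 lower with interferon-gamma alone, beside 25.7% and 24.5% of all genes, with a median log2 fold change of 1.18 beside 1.01 over all genes called. Snx10, a sorting nexin of the osteoclast ruffled border, was at 76.1 FPKM, against 6.63 FPKM in untreated construct cells. The kinase gene Src was at 6.38 FPKM, against 0.764 FPKM in untreated construct cells. Of the pump subunits, Atp6v1b2 and Atp6v1d were 2.30-fold and 2.26-fold higher and Atp6v1c1 2.2-fold lower in the authors' deposited table, while Atp6v0d2 was lower. Both treatments against doxycycline alone gave 6 higher and 1 lower, with a median of 1.60 beside -1.0. Among these were Snx10 at 13.5-fold, Src at 11.5-fold and Atp6v1d at 3.03-fold in the authors' deposited table, and an entry of the chloride exchanger gene Clcn7 at 76.1 FPKM with both treatments, against 0.942 FPKM with doxycycline alone, another entry than the one called with interferon-gamma alone.

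Of 7 genes for RANKL, M-CSF, IL-34, their receptors and decoys, Csf1 was the only one with a row. It was higher with both treatments, at 8.64 FPKM, against 2.10 FPKM with interferon-gamma alone. In that comparison 6.84% of all genes were called higher and 6.34% lower. Of the fusion partners 1 was higher and 2 were lower there, and of the resorption machinery 2 were higher and 0 lower. RANK signalling had 0 called, transcription factors 1 higher and 0 lower, and the inhibitors listed below 2 higher and 1 lower. Of 23 genes of RANK signalling and costimulation, 13 have a row, and 5 were higher and 1 lower with interferon-gamma alone, beside 25.7% and 24.5% of all genes, among them the kinase gene Pim1 at 9.29-fold and the NF-kB gene Nfkb2 at 4.64-fold in the authors' deposited table. The lower one was Blnk, an adaptor of costimulatory signalling, at 3.51 FPKM, against 16.9 FPKM in untreated construct cells. With both treatments against doxycycline alone 6 were higher and 2, Blnk and the kinase gene Syk, were lower. Of 16 transcription factor genes 9 have a row, and 2 were higher with interferon-gamma alone, Fosl1 at 12.1-fold and Junb at 3.56-fold in the authors' deposited table, and 0 were lower. Set against doxycycline alone, both treatments gave 5 higher, including Fosl1, Junb and Jdp2, and Creb1 lower.

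Of 18 genes listed as inhibitors of osteoclast differentiation, 14 have a row, and 9 were higher and 1 lower with interferon-gamma alone, beside 25.7% and 24.5% of all genes, with a median log2 fold change of 1.55 beside 1.01. The ubiquitin-editing enzyme gene Tnfaip3 was at 29.3 FPKM with interferon-gamma alone, against 5.59 FPKM in untreated construct cells. The repressor gene Bcl6 was at 65.8 FPKM with interferon-gamma alone, against 15.3 FPKM in untreated construct cells. Irf9 was at 13.0 FPKM, against 3.5 FPKM in untreated construct cells. The lower member was Cebpa, at 5.48 FPKM, against 17.5 FPKM in untreated construct cells, a myeloid factor that is also known to promote the osteoclast lineage in mice. With both treatments against doxycycline alone 8 were higher and 1, again Cebpa, was lower, beside 33.7% and 34.0% of all genes. Between untreated construct and parental cells Id1 and Id2, inhibitors of helix-loop-helix factors, were 2.12-fold and 2.05-fold lower in the authors' deposited table. With doxycycline in both lines Id1, Id2 and Rbpj were lower and Rcan1, a calcineurin inhibitor gene, was 3.78-fold higher in the authors' deposited table.

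**Figure D4:**
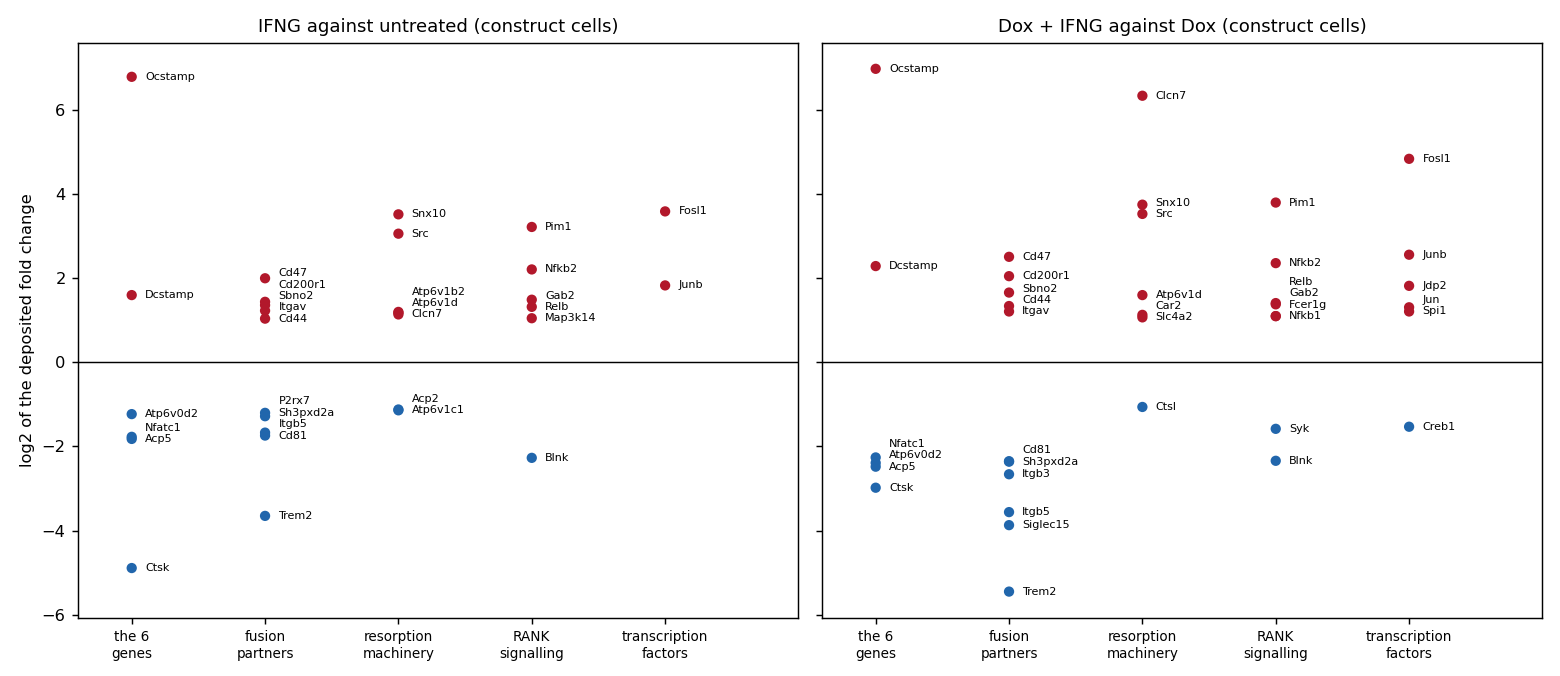
Log2 of the deposited fold change for the 6 genes and for the called genes of 4 pathway lists, with interferon-gamma alone against untreated (left) and with both treatments against doxycycline alone (right), all in construct cells; each point is 1 gene, red higher and blue lower, and crowded names are moved up. The members split between Ocstamp and Dcstamp above 0 and 4 genes below it, and fusion partners split 5 to 5 and 5 to 6.

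Of 6 dendritic cell markers, 4 have a row, and 4 were called higher and 0 lower with interferon-gamma alone, beside 25.7% and 24.5% of all genes. Clec9a was at 80.4 FPKM, against 0.0437 FPKM in untreated construct cells, and Xcr1 at 6.61 FPKM, against 0.0430 FPKM in untreated construct cells. Itgax was at 24.2 FPKM with interferon-gamma alone, against 2.04 FPKM in untreated construct cells, and Zbtb46 at 0.575 FPKM, against 0.183 FPKM in untreated construct cells. Flt3 and Ccr7 have no row in any comparison. In construct cells with doxycycline, interferon-gamma gave 2 higher, Xcr1 and Itgax, beside 33.7% of all genes, and 0 lower. Clec9a was at 133 FPKM with both treatments but has no row in this comparison and no rebuilt level with doxycycline alone. Zbtb46 has no row there either and no rebuilt level with both treatments. The macrophage markers Cd68, Adgre1 and Itgam were lower while Fcgr3, Ptprc and Spi1 were higher. The part of these genes in the results for Dcstamp and Ocstamp was not tested.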

How the data were processed

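The authors deposited a table of pairwise group comparisons. Per the file headers and name it comes from Cuffdiff, and the tools credited, per the submitters' processing notes, are Cuffdiff 2.2.1, edgeR, featureCounts, STAR 2.5.3a and FastQC 0.11.5, with no role given. The sources used here do not give build, annotation or scaling. The deposited values are a linear fold ratio of at least 2, an FPKM total of both groups and a q-value of at most 0.0499. Of 112230 rows, 34824 lie between the 6 groups and were used, and 77406 name another group and were not analysed here. The design had foreseen limma on values per sample, which the table does not hold, so every call is the authors' own.

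The lower level was rebuilt as total divided by 1 plus fold, and medians were taken over rows (Python 3.11.15, pandas 2.3.3). This was tested on simulated data. An entry was assigned to a gene where its name cell held 1 symbol beside locus identifiers. A gene's fold is that of its called entry with the highest total, and a gene is called in a direction only when its called entries share it. Shares of genes called are of the 5455 listed genes, not of all genes tested. Named genes are the 6 members, Cited1, up to 4 called genes of each list with the largest folds and 1 FPKM or more in either group, and the 3 closest patterns; further list and marker genes were named after their values were seen, and 1 gene that the rule names is not reported here. Members and lists were chosen with earlier results of these data known. Alternatives are in the closing section.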

Additional observations from a re-analysis of the deposited data

How the results depend on the processing

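No paired analysis was possible because the table holds no values per sample, and for the same reason no replicate could be left out. The 22 calls of the 6 genes all held at a q of 0.01 or less. In construct against parental cells with doxycycline 4 members in place of 5 were higher at 1 FPKM or more, with 1 FPKM added to both groups (Ocstamp 0.50) and with the symbol alone in the name cell. Shifting by the median of listed rows left 1 member higher with interferon-gamma alone and 0 with both treatments against interferon-gamma alone, since Dcstamp went to 0.56 and 0.27. That median lies beyond 2-fold by construction, as rows under 2-fold are not listed. Shifting by the median of all entries, chosen after the data were examined, also left 1 higher with interferon-gamma alone. Both medians were taken over entries with 1 FPKM or more in either group. Counting a name cell only where it holds the symbol alone, also chosen afterwards, leaves out Ocstamp and so left 1 higher in both interferon-gamma comparisons.

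The difference of fusion minus resorption genes kept its sign under every alternative that gave a value. With interferon-gamma alone it was 4.96 with Atp6v0d2 among the fusion genes, 6.01 with it among the resorption genes, 4.73 with the pseudocount, 10.14 under both shifts, which remove Dcstamp, and 4.96 without Ocstamp. With both treatments against doxycycline alone it was 5.01, 7.11, 5.42 and, with entries summed, 7.33, and 5.01 without Ocstamp. For construct against parental cells it was -1.12 with Atp6v0d2 in either role, -0.32 with the pseudocount and -1.36 with entries summed. With doxycycline in both lines it was -0.87 with Atp6v0d2 among the fusion genes, -0.80 among the resorption genes, -0.74 with the pseudocount, and -1.85 both at 1 FPKM or more and without Ocstamp. The depth behind the levels is unknown, so no counting error can be given for those under 1 FPKM.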
